A study of Mus musculus with 6 samples.

Results

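The custom part of the array carried numbered transcript targets without gene names, and 29892 of its 33034 targets were each covered by exactly 3 different probes of 60 nt. These 29892 targets, with 89676 of the 151045 non-control probes on the array, are described here. They were chosen by design alone, from the probe names and target numbers, so no measured value entered the choice. Macrophages were grown from the bone marrow of BALB/c mice without any genetic change (wild type), for 7 days with L929 supernatant, and rested for 24 h before stimulation for 48 h. The 3 M1 samples received LPS at 100 ng/mL with IFN-γ at 20 ng/mL, and the 3 M2 samples received IL-4 at 20 ng/mL. The replicates of a group came from different mice, and no unstimulated cells were arrayed, so every difference is M1 against M2. The state of the cells was not checked against marker genes here, because none of the macrophage, M1 or M2 marker genes listed for that purpose could be tied to a target by sequence.

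LPS, a bacterial cell wall component, is sensed through Toll-like receptor signalling, and IFN-γ acts through STAT transcription factors. Together they drive macrophages to a state known for inflammatory cytokines, nitric oxide and glycolytic metabolism. IL-4, a cytokine of type 2 immunity, drives them through STAT6 to a state known for tissue repair and oxidative metabolism. Custom probe sets of this kind are used to follow transcripts outside the standard catalogue, and several probes on a target allow its difference to be read more than once on the same array.

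Because the targets have no names, their probes are the identity that can be given. The first set holds the pair of targets in each direction with the largest difference among those whose 3 probes were all called the same way and detected on all 6 arrays, and the remaining targets are the ones detected only in M1 and the ones whose probes disagreed. Probes are numbered by the suffix of their identifier. Capitals mark bases in a run of at least 30 shared with another probe on the array, and all other bases are in lower case.
Target 30483, higher in M1, probe 1: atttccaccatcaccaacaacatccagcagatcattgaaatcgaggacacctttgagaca
Target 30483, probe 2: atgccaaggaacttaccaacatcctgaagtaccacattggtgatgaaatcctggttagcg
Target 30483, probe 3: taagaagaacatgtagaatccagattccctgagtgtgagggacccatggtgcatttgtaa
Target 1139, higher in M1, probe 1: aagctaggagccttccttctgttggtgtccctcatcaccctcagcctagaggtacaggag
Target 1139, probe 2: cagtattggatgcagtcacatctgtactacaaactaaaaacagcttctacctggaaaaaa
Target 1139, probe 3: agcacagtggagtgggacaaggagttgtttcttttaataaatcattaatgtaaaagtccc
Target 3345, higher in M2, probe 1: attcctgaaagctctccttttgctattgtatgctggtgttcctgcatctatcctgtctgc
Target 3345, probe 2: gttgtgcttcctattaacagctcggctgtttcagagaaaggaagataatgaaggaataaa
Target 3345, probe 3: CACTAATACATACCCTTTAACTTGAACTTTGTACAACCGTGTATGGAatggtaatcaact
Target 19795, higher in M2, probe 1: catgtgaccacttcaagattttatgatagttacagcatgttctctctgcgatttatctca
Target 19795, probe 2: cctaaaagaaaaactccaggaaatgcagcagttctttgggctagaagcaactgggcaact
Target 19795, probe 3: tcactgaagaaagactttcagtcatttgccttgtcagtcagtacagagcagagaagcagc
Target 30958, detected only in M1, probe 1: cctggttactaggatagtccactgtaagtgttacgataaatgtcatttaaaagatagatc
Target 30958, probe 2: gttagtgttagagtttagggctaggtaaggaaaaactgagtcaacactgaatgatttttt
Target 30958, probe 3: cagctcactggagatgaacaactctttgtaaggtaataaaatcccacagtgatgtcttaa
Target 4373, detected only in M1, probe 1: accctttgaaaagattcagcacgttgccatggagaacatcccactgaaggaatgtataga
Target 4373, probe 2: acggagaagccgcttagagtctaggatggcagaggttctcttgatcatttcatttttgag
Target 4373, probe 3: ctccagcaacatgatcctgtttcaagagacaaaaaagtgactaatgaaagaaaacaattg
Target 10002, probes called in opposite directions, probe 1: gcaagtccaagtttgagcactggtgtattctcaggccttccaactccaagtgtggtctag
Target 10002, probe 3: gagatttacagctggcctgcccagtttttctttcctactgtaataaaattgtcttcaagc
Target 12241, probes called in opposite directions, probe 2: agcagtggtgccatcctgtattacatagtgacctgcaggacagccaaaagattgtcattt
Target 12241, probe 3: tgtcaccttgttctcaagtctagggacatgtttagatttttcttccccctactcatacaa

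All 6 arrays were of one colour, and the processed signal of each spot is given as log2 relative to the array's 75th percentile, which is 0 on this scale. A probe counted as detected where the scanner software marked it well above background. A probe so marked on no array of a group is said to have stayed at background there, and its value in that group is only an upper bound. The share of the targets' probes that was detected came to 56.8%, 53.9% and 46.9% on the M1 arrays, in replicate order, and to 52.4%, 58.4% and 49.99% on the M2 arrays. The group means, 52.5% ± 5.06 (SD, n = 3) and 53.6% ± 4.34 (SD, n = 3), overlapped (exact permutation test, two-sided, p = 0.8, with 0.1 the smallest value this design allows). Replicate 3 stood apart from replicates 1 and 2 in both groups. The median absolute difference between replicates 1 and 2 of a target was 0.11 in M1 and 0.15 in M2 on the log2 scale, against 0.38 and 0.39 between replicate 3 and the mean of the others. In M1 replicate 3, 7.48% of tested targets lay over 2-fold below that mean, and in M2 replicate 3, 7.97% did. M2 replicate 1 lay on slide 1 with every M1 array, and the other M2 arrays on slide 2, so slide and group were partly confounded. No spot was saturated. With 3 arrays a group, their number sets the precision.

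Most targets were neither detected by all 3 probes on every array nor silent on every array. All 3 probes were detected on all 6 arrays for 6042 targets (20.2%), and no probe was detected on any array for 3893 targets (13.0%). On all 3 M1 arrays, 8371 targets had 0 detected probes, 9010 had 1, 5933 had 2 and 6578 had 3. On all 3 M2 arrays the numbers were 7961, 8915, 6103 and 6913. The same number of probes was detected in M1 and M2 for 25461 targets (85.2%), while 1668 had more in M1 and 2763 had more in M2. These counts require all 3 arrays of a group, and M1 replicate 3 had the lowest share of detected probes of any array (46.9%). Its part in the excess for M2 was not tested. A switch of all 3 probes was rare. By the criterion of all 3 arrays of a group, 8 targets had 3 detected probes in M1 and 0 in M2, and 27 had 0 in M1 and 3 in M2. Under the stricter criterion that no probe was detected on any array of the other group, 3 targets remained for M1 and 0 for M2.

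**Figure D1:**
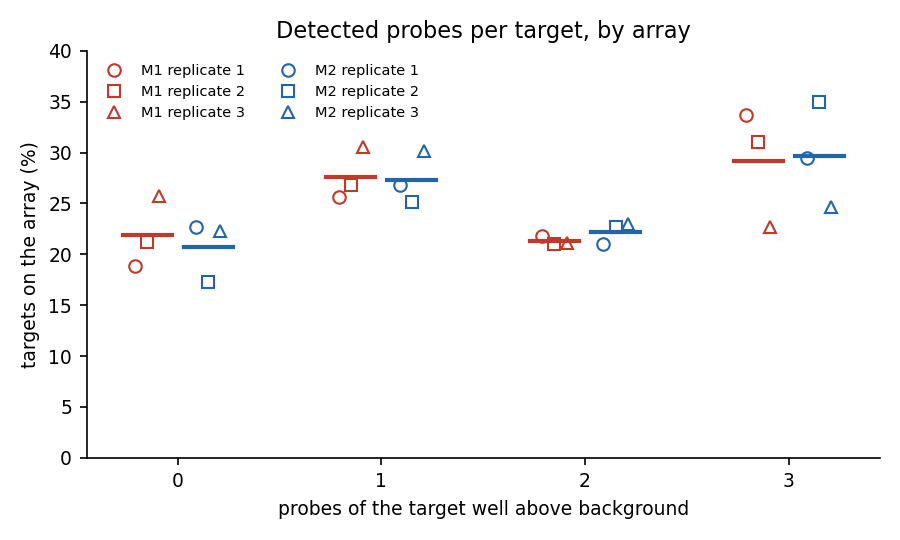
Percent of the 29892 targets (y axis) with 0, 1, 2 or 3 probes well above background (x axis) on each array, with one symbol per replicate and a horizontal line at the group mean. Targets with 3 detected probes made up 22.7% to 33.7% of targets on the M1 arrays and 24.6% to 34.9% on the M2 arrays, and the groups overlapped in every class.

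The 3 probes of a target were not alike by number. Probe 3 was tested, that is detected on all arrays of at least 1 group, for 53.0% of targets, against 46.5% for probe 1 and 46.7% for probe 2. Its median GC content was 38.3%, against 43.3% for both others. The hexamer AATAAA, the common polyadenylation signal of mammalian transcripts, stood in 14.0% of the probes numbered 3, 3.27% of those numbered 2 and 3.02% of those numbered 1. Its reverse complement TTTATT stood in 4.81%, 4.15% and 4.08% of them, and catalogue probes held AATAAA in 10.1% and TTTATT in 3.74% of cases. Probe 3 shared at least 30 nt with a catalogue probe on the same strand in 3250 cases, probe 2 in 547 and probe 1 in 346. In the opposite order, 339 probes numbered 1, 171 numbered 2 and 100 numbered 3 lay whole in a RefSeq promoter window, the 250 bases before and 50 bases after an annotated start site. Where a target had a single detected probe on all 6 arrays and the other two on none, that probe was number 1 in 1357 of 3856 targets, number 2 in 1155 and number 3 in 1344.

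M1 was compared with M2 in 22454 targets with at least 1 tested probe, the value of a target being the mean of its tested probes. Of these, 556 (2.48%) differed with limma at a Benjamini-Hochberg adjusted p under 0.05 and a fitted difference of at least 2-fold. Over all 24283 tested custom targets of the array the share called was 2.44%. The targets with 3 probes make up most of these, so the shares are bound to lie close. Of the 556, 243 were higher in M1 (1.08%, against 1.07% of all custom targets) and 313 were higher in M2 (1.39%, against 1.37%). At an unadjusted p under 0.05 there were 3391 targets. Every M1 array lay on one side of every M2 array in all 556, as in 5099 of the 22454 tested targets (22.7%). With median scaling the balance turned, to 324 targets for M1 and 280 for M2, and without M1 replicate 3 to 330 and 292.

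The count moved with single arrays. Leaving out M1 replicate 1 gave 229 and leaving out M1 replicate 2 gave 260. Leaving out M2 replicate 1 gave 203, M2 replicate 2 gave 215, and replicate 3 of both groups 1279. With the replicate number as a block in the fit 853 targets were called, and with the slide as a block 23 were. Slide 2 held M2 arrays only, so with the slide as a block a difference is the M1 mean minus M2 replicate 1. Whether the slide or the reliance on a single M2 array lowered the count was not tested.

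**Figure D2:**
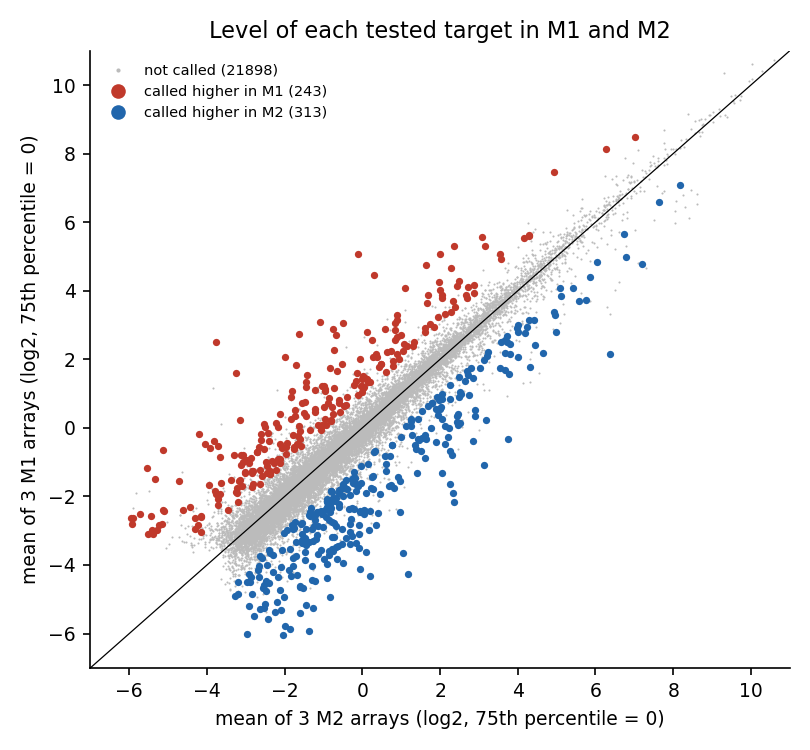
Mean level of each of the 22454 tested targets on the 3 M1 arrays (y axis) against the 3 M2 arrays (x axis), both in log2 units relative to the array's 75th percentile. Grey points were not called, the 243 red points were called higher in M1 and the 313 blue points higher in M2, and the line marks equal levels; levels near the left or lower edge lie at background, where a difference is only a bound.

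Most called differences were modest. The fitted difference reached 4-fold for 97 targets higher in M1 and 128 higher in M2, 8-fold for 27 and 42, and 16-fold for 10 and 13. These counts include targets with probes at background in a group, such as 30958 and 4373, for which only a bound holds. Targets with 3 tested probes were called more often than the others. Of 7492 targets with 3 tested probes 328 were called (4.38%), against 93 of 6263 with 2 tested probes (1.48%) and 135 of 8699 with 1 (1.55%). The number of tested probes moves with the level of a target, and its part in these shares was not tested.

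Of the 328 called targets with 3 tested probes, 176 were also called by each probe alone, 81 of 143 higher in M1 and 95 of 185 higher in M2. Over all 79834 probes tested on the array 3.82% were called. Of the M1 targets 47 had 2 called probes, 14 had 1 and 1 had none, and of the M2 targets 64 had 2, 20 had 1 and 6 had none. All 3 probes were also detected on every array, each with separate groups, in 60 of the M1 and 54 of the M2 targets. The naming rule took its 10 targets in each direction from these.

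Among these targets, detected on all 6 arrays by 3 called probes, the largest difference in M1 was that of 30483, whose probes share no long run with any other probe on the array. Its level was 5.04, 5.04 and 3.32 on the M1 arrays and 0.37, 0.30 and 0.21 on the M2 arrays, here and below in replicate order. All M1 arrays lay far above the M2 arrays, and M1 replicate 3 was the lowest of its group. The difference was 4.17 ± 0.45 (SE) on the log2 scale, an 18.0-fold fitted difference (limma, adjusted p = 0.00606). Its 3 probes gave 3.89, 4.46 and 4.17, so they differed from each other by less than the M1 replicates did.

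Target 1139 had levels of 3.07, 3.21 and 2.33 in M1 and -1.20, -1.28 and 0.19 in M2. The groups did not overlap, and replicate 3 lay toward the other group in both. The difference was 3.63 ± 0.44 (SE), or 12.4-fold (limma, adjusted p = 0.0085). The probes agreed in sign but not in size, since probe 1 gave 1.49 and probes 2 and 3 gave 4.84 and 4.56.

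Target 22421 was measured at 4.57, 4.52 and 5.11 in M1 and 1.60, 1.38 and 1.95 in M2. Here replicate 3 was the highest of both groups, and the gap between groups was wider than either range. The difference was 3.09 ± 0.24 (SE; limma, adjusted p = 0.00204), and the 3 probes gave 3.07, 3.05 and 3.17.

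The remaining named targets higher in M1 ranged from 2.99 to 2.49 in their difference. Target 30662 was at 4.11, 4.0 and 4.13 in M1 and 1.39, 1.35 and 0.54 in M2. Target 10118 was at 2.21, 2.12 and 2.46 in M1 and -0.92, -0.95 and -0.31 in M2. Both had a difference of 2.99, with adjusted p of 0.00256 and 0.002 in limma. In both, the M2 array farthest from the others was replicate 3, and the groups did not overlap.
Target 27352 was at 5.28, 5.44 and 5.24 in M1 and 2.13, 1.85 and 3.08 in M2, without overlap. They differed by 2.96 ± 0.32 (SE; limma, adjusted p = 0.00585). Its probe 3 shared 57 bases in runs of at least 30 with a probe of target 8725, which differed by 2.84 (limma, adjusted p = 0.00759), so these are not separate measurements. Targets 1152, 3227, 24749 and 1459 differed by 2.69, 2.63, 2.53 and 2.49, with adjusted p of 0.00567, 0.011, 0.00214 and 0.0133 in limma. Target 24749 was at 7.29, 7.24 and 7.83 in M1 and 4.99, 4.84 and 4.94 in M2. Its probe 2 shared 47 bases with a catalogue probe that differed by 2.68 in the same direction.

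In M2 the largest difference among targets of the same kind belonged to target 3345. Its level was 2.08, 2.38 and 2.03 in M1 and 6.22, 6.09 and 6.80 in M2. All M2 arrays lay above all M1 arrays, by far more than either group's range. The difference was -4.21 ± 0.23 (SE), an 18.5-fold fitted difference (limma, adjusted p = 0.00117). The 3 probes gave -4.11, -4.25 and -4.26, and the catalogue probe that shares 47 bases with probe 3 gave -4.27 (limma, adjusted p = 0.000563).

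Target 19795 was at -0.48, -0.46 and -0.02 in M1 and 4.12, 3.93 and 3.18 in M2. Replicate 3 of each group lay nearest to the other group, without overlap. The difference was -4.06 ± 0.28 (SE), or 16.7-fold (limma, adjusted p = 0.00167), with -3.91, -4.05 and -4.24 for the 3 probes. No probe of it shared a long run with another probe on the array.

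Target 7003 was at 0.01, 0.08 and -1.23 in M1 and 2.61, 2.43 and 3.50 in M2. In this target replicate 3 lay away from the other group in both. The difference was -3.23 ± 0.43 (SE; limma, adjusted p = 0.0119), and it was -3.34 with an adjusted p of 0.056 without M2 replicate 1.

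The other named targets higher in M2 fell in a narrow range, from -2.57 to -2.38. Target 32691 was at -1.87, -2.11 and -1.31 in M1 and 1.00, 0.77 and 0.66 in M2, without overlap. They differed by -2.57 ± 0.24 (SE; limma, adjusted p = 0.00362). Its probe 3 is identical to a catalogue probe, which gave -2.53. Targets 2503, 5705, 13017, 32792, 10052 and 2282 differed by -2.55, -2.54, -2.47, -2.41, -2.40 and -2.38, with adjusted p between 0.00167 and 0.0107 in limma. Target 32792 was at 4.87, 4.80 and 4.71 in M1 and 7.16, 7.04 and 7.40 in M2, and its 3 probes gave -2.37, -2.47 and -2.38.
Of these 20 targets, 18 were no longer called with the slide as a block, with adjusted p between 0.0522 and 0.214 in limma. The 2 that kept their calls were 3345 and 19795, both with an adjusted p of 0.0357. With the replicate number as a block all 20 were called. Leaving out 1 array, 4 fell short of the adjusted p threshold. Target 1459 did so without M2 replicate 1 (0.0707) or replicate 2 (0.0702), target 3227 without M1 replicate 1 (0.0506) or M2 replicate 1 (0.0609), target 2282 without M1 replicate 1 (0.0506) or M2 replicate 1 (0.0549), and target 7003 as given above. On slide 1 alone, against M2 replicate 1, the differences of the 20 were 0.871 to 1.12 times those over all arrays. The arrays of this fit are also in the main comparison. The direction could not change in it, because the naming rule admitted only targets without overlap. That fit no longer called 17 of the 20 (limma, adjusted p between 0.0527 and 0.226).

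**Figure D3:**
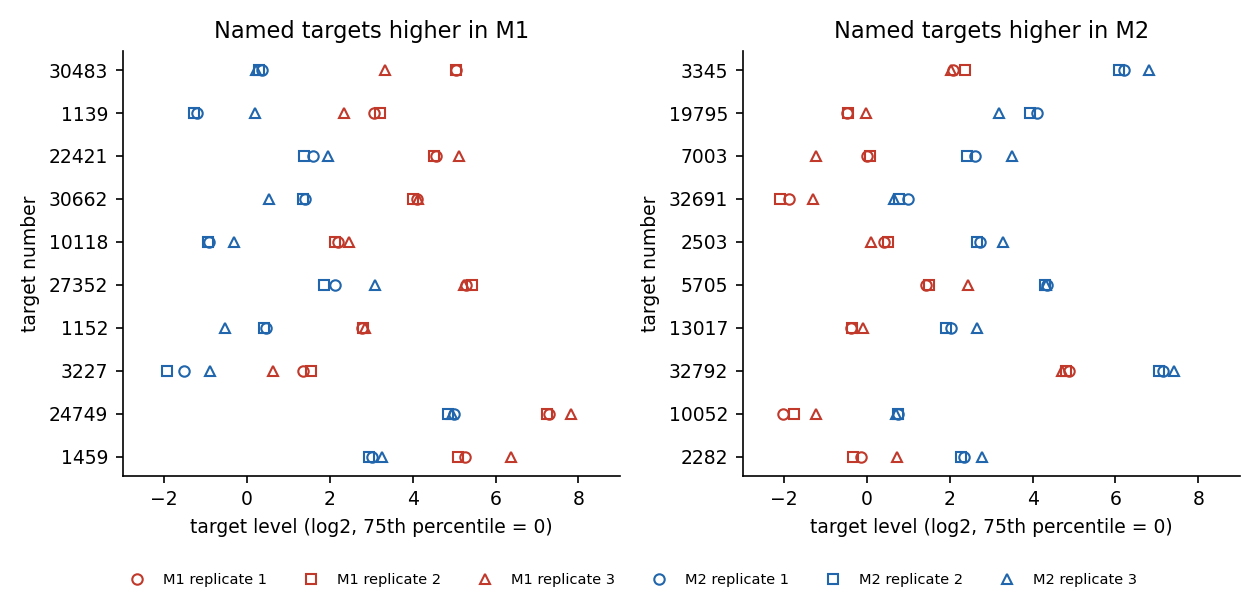
Level of the 10 named targets higher in M1 (left) and the 10 higher in M2 (right) on each array, in log2 units relative to the array's 75th percentile (x axis), by target number (y axis) in order of difference. Red symbols are M1 and blue symbols M2, with circles, squares and triangles for replicates 1, 2 and 3. The red and blue symbols do not overlap in any of the 20 targets, as the naming rule required. Replicate 3 is often the farthest from its group.

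Among the 3 targets detected by every probe in M1, array by array, and by none in M2, 2 were called, 30958 and 4373. Target 30958 was at -0.55, -0.74 and -0.63 in M1, while its probes stayed at background in M2. Against the lowest detected signal of each M2 array, or the probe's own where higher, the M1 mean was at least 11.1-fold higher for probe 1, at least 7.10-fold higher for probe 2 and at least 8.34-fold higher for probe 3. The adjusted p of the target, 0.000329 in limma, was computed with those background values, so only the bounds describe its size. Target 4373 was at -1.28, -1.22 and -1.05 in M1, and its probes were at least 2.46-fold, at least 8.30-fold and at least 10.4-fold higher in M1. The adjusted p of this target, 0.000225 in limma, likewise rests on background values in M2. Both targets were tested only through their detection in M1. Target 24953 showed the same pattern of detection and was not called. Its level was -2.94, -3.26 and 0.46 in M1 replicates 1, 2 and 3, so replicate 3 stood far above the others. By its lowest probe bound M1 was at least 3.11-fold higher, and the adjusted p was 0.0807 in limma. Without M1 replicate 3 the target was called, with an adjusted p of 0.00554, but its M2 value was still only an upper bound. That p therefore rests on background values. The 3.11-fold bound includes M1 replicate 3, and no bound was computed without it.

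Across the 7492 targets with 3 tested probes, the SD of the 3 probe differences had a median of 0.13 on the log2 scale. Pearson's r between the differences of 2 probes of a target was 0.75 to 0.79 across targets, which share arrays and are not independent replicates. All 3 differences had one sign in 319 of the 328 called targets and in 4532 of the 7164 uncalled ones (63.3%). The SD stayed under 0.25 in 152 of the 328 and exceeded 1 in 59 of them, against 165 of all 7492. Among uncalled targets, 364 had at least 1 called probe, and 15 called targets had no called probe.

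**Figure D4:**
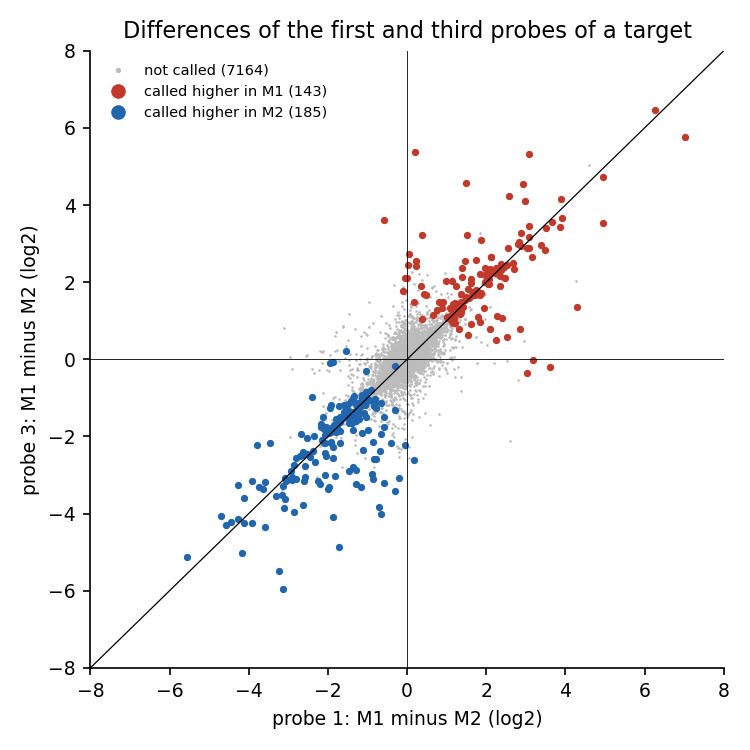
Difference M1 minus M2 of probe 3 (y axis) against probe 1 (x axis), both in log2 units, for the 7492 targets with 3 tested probes. Red and blue points are the 143 targets called higher in M1 and the 185 called higher in M2, the diagonal marks equal differences, and points near a zero line are targets in which 1 of these probes differed and the other did little.

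Called probes pointed in opposite directions in 2 targets, 10002 and 12241, and neither target mean was called. Probe 1 of target 10002 was at -2.10, -2.20 and -1.99 in M1 and -1.39, -0.68 and -0.82 in M2, a difference of -1.13 (limma, adjusted p = 0.0373). Probe 3 of the same target was at 1.69, 1.74 and 0.51 in M1 and -0.62, -0.36 and -0.37 in M2, a difference of 1.76 (limma, adjusted p = 0.036). Neither probe had overlapping groups, and the target mean differed by 0.31 (limma, adjusted p = 0.633). In target 12241, probe 2 differed by 1.55 and probe 3 by -1.11, with adjusted p of 0.0148 and 0.0217 in limma, while probe 1 differed by 0.26 (adjusted p = 0.589). No probe of either target shared a run of 30 nt with another probe.

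In the called targets with the widest spread of probe differences, 1 or more probes did not follow the probe with the largest difference. In target 26970, probe 3 differed by 6.47 and probe 2 by 0.38 (limma, adjusted p = 0.0187 and 0.555). Probe 1 stayed at background on the M2 arrays. Its M1 mean was at least 23.6-fold higher, and its fitted difference was 6.26. Probe 3 was at 5.85, 5.92 and 1.79 in M1 and -1.84, -2.22 and -1.78 in M2, so M1 replicate 3 lay far below the other M1 arrays. Without M1 replicate 3 the target had an adjusted p of 0.00306. Without any other single array it missed the threshold, with adjusted p between 0.0569 and 0.113.
In target 28429 probe 3 alone was called, at 5.38, while probes 1 and 2 gave 0.21 and 0.72, and a catalogue probe sharing 38 bases with probe 3 gave 5.61. In target 8647 the probes gave -0.57, 1.00 and 3.6. Probe 3 of 28429 and probe 3 of 8647 were each detected on only 2 M2 arrays, so 5.38 and 3.6 rest partly on background values.
Among targets higher in M2, probe 2 of target 11404 differed by -0.36 and its probes 1 and 3 by -4.57 and -4.29. Probe 1 of target 2436 gave -0.65 and the others -4.42 and -4.02. Probe 3 of 11404 and probe 2 of 2436 were not well above background on any M1 array, so there the M2 mean was at least 4.46-fold and at least 4.39-fold higher. Probe 1 of target 15577 gave -0.71 and the others -4.36 and -3.83. Probe 1 of 11404 was detected on only 1 M1 array and probe 2 of 15577 on only 2. Their values of -4.57 and -4.36 therefore rest partly on background. With the slide as a block none of these 6 targets was called (limma, adjusted p between 0.0596 and 0.284). The probes with the small differences were detected on all 6 arrays in each of these 6 targets, in both directions. Targets 28429 and 8647 lost their call without M1 replicate 1, M2 replicate 1 or M2 replicate 2, with adjusted p between 0.054 and 0.0865, and 15577 without M2 replicate 1 (0.0527); 28429 also did without M2 replicate 3 (0.056) and 8647 without M1 replicate 2 (0.0698).

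Some targets overlap each other or the catalogue. At least 30 nt were shared on the same strand with a catalogue probe by 3929 targets (13.1%), and by 110 of the 556 called ones (19.8%). Of the called targets, 99 could be paired with 1 or more tested catalogue probes. In every such pair the catalogue probe differed in the same direction, and in 91 pairs (85.0%) it was called too. The pairs share sequence and arrays, so they are readings of one hybridisation target. Among themselves the 556 called targets formed 550 groups linked by shared sequence, 6 of them with 2 targets, and no group held both directions.

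Sequence tied a small number of targets to genes. A probe of 555 targets lay whole in a promoter window of RefSeq (GRCm38.p6). With protein-coding genes, 346 pairs of target and gene were on the strand opposite to the gene and 105 on the same strand. With long non-coding RNA genes the numbers were 79 and 75. A probe that lies whole in such a window on the gene's own strand begins upstream of the annotated start site, because the window holds 50 bases after it. Of the 460 window targets tested, 8 were called (1.74%, against 2.44% of all custom targets), 5 higher in M1 and 3 higher in M2. None of the 8 was called once the slide was a block, with adjusted p between 0.116 and 0.397 in limma. These 8 are named below because they could be tied to a gene, after their values had been seen. A match places a probe at a gene's promoter and does not show that the target belongs to that gene's transcript.

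Irak3 encodes an inactive kinase that restrains Toll-like receptor signalling, and each of its 2 windows held a probe of a called target. Both targets ran opposite to the gene on chromosome 10. The probes in the windows are shown to place them.
Target 23497, probe 2, chr10:120202111-120202170, plus strand: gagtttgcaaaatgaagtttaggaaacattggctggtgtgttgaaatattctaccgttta
Target 30024, probe 1, chr10:120201700-120201759, plus strand: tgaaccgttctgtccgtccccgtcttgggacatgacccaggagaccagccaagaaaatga
Target 23497 was at 2.14, 2.10 and 2.38 in M1 and 0.53, 0.49 and 0.86 in M2. The groups were well separated, with replicate 3 highest in both. The difference was 1.58 ± 0.18 (SE; limma, adjusted p = 0.00707), and the 3 probes gave 1.36, 1.68 and 1.70. Target 30024 was at 2.28, 2.30 and 2.60 in M1 and 1.01, 0.95 and 1.52 in M2, and the groups did not overlap. They differed by 1.24 ± 0.21 (SE; limma, adjusted p = 0.0318). Its probe in the window differed by 0.43 (adjusted p = 0.453), and its probes 2 and 3 by 1.58 and 1.70. Probe 3 of one target shares 59 bases with probe 3 of the other, so the targets are not independent. The call of 30024 was lost without any single array other than M2 replicate 3, with adjusted p between 0.0728 and 0.144, and that of 23497 held in all 6 of these fits. With the slide as a block the difference of 23497 was 1.68 and was not called (limma, adjusted p = 0.116).

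Pdk1 encodes pyruvate dehydrogenase kinase, which turns pyruvate away from mitochondrial oxidation. The probe in its window, on the gene's own strand, is the following.
Target 16057, probe 2, chr2:71874775-71874834, plus strand: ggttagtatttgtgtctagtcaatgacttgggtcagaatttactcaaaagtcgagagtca
That probe was not well above background on any array, and neither was probe 1. The target's value came from probe 3, at 0.78, 0.73 and 1.11 in M1 and -0.61, -0.63 and -1.36 in M2. The difference was 1.74 ± 0.25 (SE; limma, adjusted p = 0.016), and it missed the threshold without M1 replicate 1, M1 replicate 2, M2 replicate 1 or M2 replicate 2, with adjusted p between 0.0552 and 0.0669.

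The other targets higher in M1 were likewise called on probes outside the window. Target 5131, opposite to Sephs2, a gene of selenoprotein synthesis on chromosome 7, differed by 1.40 ± 0.20 (SE; limma, adjusted p = 0.0156). Target 857, at the non-coding gene 0610009E02Rik on chromosome 2, differed by 1.04 ± 0.17 (SE; limma, adjusted p = 0.0254). In both, the window's probe was not tested. Both calls were lost without M1 replicate 1, M1 replicate 2, M2 replicate 1 or M2 replicate 2, with adjusted p between 0.0641 and 0.132, and the fit within slide 1 gave -0.27 for 5131. In that fit probe 3, tested on M2 replicate 1 alone, entered the target's mean, while the probe behind the call, probe 1, gave 1.56 there in the original direction.

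Among the targets higher in M2, all opposite to their gene, 32706 at Spef1l on chromosome 7 had the largest difference. Its level was -2.29, -2.11 and -2.84 in M1 and -0.32, -0.12 and 0.21 in M2, without overlap. They differed by -2.34 ± 0.25 (SE; limma, adjusted p = 0.00567). The window's own probe, probe 3, gave -1.86 (adjusted p = 0.0282). Probe 1 stayed at background in M1, and its M2 mean was at least 2.62-fold higher. Target 14829 lies opposite to Atg4c, an autophagy protease gene on chromosome 4. It was at -2.06, -2.14 and -2.24 in M1 and -0.87, -0.80 and -1.06 in M2, without overlap. They differed by -1.24 ± 0.16 (SE; limma, adjusted p = 0.011), and its probe in the window gave -1.29. Target 28352, opposite to Nudt16l1 on chromosome 16, differed by -1.13 ± 0.20 (SE; limma, adjusted p = 0.0348). The call of 28352 was lost without any single array (adjusted p between 0.0624 and 0.135), and that of 14829 without M1 replicate 1, M1 replicate 2, M2 replicate 1 or M2 replicate 2 (0.0564 to 0.0721).

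**Figure D5:**
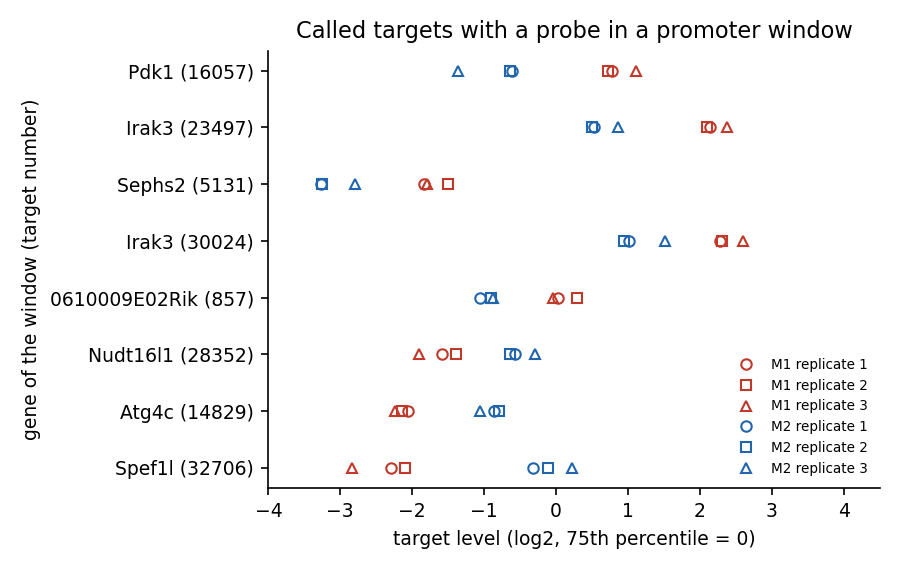
Level on each array (x axis, log2 units relative to the array's 75th percentile) of the 8 called targets with a probe in a RefSeq promoter window, labelled by the gene of the window and the target number (y axis) and ordered by difference. Red symbols are M1 and blue symbols M2, with circles, squares and triangles for replicates 1, 2 and 3; M1 lies to the right in the 5 upper targets and to the left in the 3 lower ones, without overlap.

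A pair of gene lists among the window genes, drawn up by gene name after Irak3 and Pdk1 had been seen, gives these calls their surroundings and supports nothing on its own. Of 26 genes of immune signalling and antigen handling, with 28 targets (19 of them opposite to the gene), 25 targets were tested. Those called were the 2 Irak3 targets, both higher in M1, and none was called higher in M2, where 2.48% of all tested targets were called in either direction. The median difference of the 25 was 0.06, with 15 above 0, against a median of -0.04 and 45.3% above 0 over all 22454 tested targets. The largest uncalled differences belonged to Pde4b, a phosphodiesterase gene, and Znfx1, an RNA helicase gene. The Pde4b target 6336 was at 1.51, 1.39 and 0.11 in M1 and 0.17, 0.25 and -0.07 in M2, so M1 replicate 3 overlapped the M2 arrays (limma, adjusted p = 0.329). Without M1 replicate 3 it differed by 1.25 with an adjusted p of 0.0224. The Znfx1 target 27309, opposite to the gene, differed by 0.50 (limma, adjusted p = 0.453).
Of 19 genes of energy and lipid metabolism, each with 1 target (15 of them opposite to the gene), 15 targets were tested. The Pdk1 target alone was called, again beside 2.48% of all tested targets. The median difference was 0.12, with 10 of 15 above 0. The largest uncalled differences were -0.46 for the Dld target 5115 and 0.46 for the Ogdh target 22410 (limma, adjusted p = 0.593 and 0.65). Both are genes of mitochondrial dehydrogenase complexes, and both targets are opposite to their gene.

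STAT factors bind palindromes of the form TTCNNNGAA, and STAT6 also TTCNNNNGAA. Both were searched in the windows of the 8 called targets, where a match on one strand is a match on the other. TTCNNNGAA stood in 8.30% and TTCNNNNGAA in 6.95% of all 32851 promoter windows, and neither was found in these 8. The absence says only that these letters are not in these windows.

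MicroRNA hairpins held a whole probe of 6 targets, covering 7 hairpins. The probes in Mir322, Mir181b-1, Mir106a and Mir20a were not detected on any array. Those opposite to Mir29c and on the strand of Mir6516 and Mir18 were detected on all 6. None of the 6 targets was called, and target 33147 at Mir106a had no tested probe.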

How the data were processed

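The authors deposited 1 scanner file per array. Its processed intensity was made by Agilent Feature Extraction 10.7, per the submitters' processing notes, and was background-subtracted within the array without scaling between arrays, per the file headers. The authors' deposited value table of log2 values holds 37401 catalogue probes and 0 custom probes, and was not used. Signals were put on the log2 scale, and the 75th percentile of an array's non-control probes was subtracted. Outlier-marked spots were dropped. Testing required a probe to be well above background on every array of M1, of M2 or of both. A target's value was the mean of its tested probes, and one with a left-out spot was used only where the target had no complete probe. The linear model of limma 3.58.1 with moderated variance (R 4.3.3) was run over all custom targets, and separately over all probes, with Benjamini-Hochberg adjustment, and checked on simulated data. A call needed an adjusted p under 0.05 and a log2 difference of at least 1.

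Targets were named by rule: in each direction the 10 largest differences among called targets whose 3 probes were all called alike, detected on all 6 arrays and without overlap; up to 5 detected in a single group; targets with probes called in opposite directions; and in each direction the 3 with the widest spread of probe differences. Targets tied to promoter windows and those with consecutive numbers were named after their values were seen. The members and lists were chosen with earlier results of these data known. Sequences were matched over the whole 60 nt to RefSeq promoter windows and hairpins of GRCm38.p6; the file headers name another build and give no positions. Deviations from the group means correlated at 0.339, 0.308 and 0.477 between same-numbered arrays. Values above 0.1 were set to count as pairing, but M1 replicate 1 with M2 replicate 2 reached 0.412, so they do not settle which arrays pair. The main fit held no pairing, and the replicate number was a block only among the alternatives. Alternatives covered scaling, background correction, filters, the block terms, the summary of probes and each array left out. A pair of alternatives, replicates 1 and 2 averaged and slide 1 alone, was added after the data had been seen.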

Additional observations from a re-analysis of the deposited data

How the results depend on the processing

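The number of called targets was within 1.5 times 556 under 12 of 24 alternatives. It was 200 with spike-in scaling, 303 with normexp, 352 with no filter on dim probes, 853 with the replicate block, 23 with the slide block, 1279 with replicate 3 left out of both groups, 67 with replicates 1 and 2 averaged as 1 sample and 39 within slide 1, and 203 to 622 with 1 array left out. Targets with all 3 probes called numbered 176, within 1.5 times under 10 of 21 alternatives. They were 99 with spike-in scaling, 113 with normexp, 95 with no filter, 10 with the slide block, 358 without replicate 3, 27 with replicates 1 and 2 averaged, 0 within slide 1 (where 1 M2 array is assumed to vary like the M1 arrays) and 65 to 215 with 1 array left out; the replicate block gave 245. Among the named targets the calls of 3345, 19795, 30958, 4373 and 955 held under every alternative that could be run for them. The slide block ended 40 calls of named targets and the averaging of replicates 1 and 2 ended 30. For the same probes the slide block and slide 1 alone give the same difference, so they are not separate checks. The target mean of 5131 turned within slide 1 (-0.27), where a probe untested elsewhere entered it and the probe behind its call kept its direction (1.56), and the direction turned for the uncalled target 5115 with no filter or with the mean of all its probes (0.25). The cause of the other changes was not tested. Signal near background limits 30958 and 4373, whose M2 values allow only bounds, and probes 1 and 2 of 955.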

Other observations

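Among 15564 pairs of tested targets with consecutive numbers, both were called in 19 pairs (0.122%), and the direction was the same in 11 of them. The first target of the pair was called in 406 pairs (2.61%), beside 2.48% of all tested targets. Whether called targets lie together by number was not tested. Pairs of window targets with numbers at most 5 apart lay on the same chromosome in 26 of 77 cases. Among the 19 pairs, those in which both targets differed by at least 4-fold are given here, picked after their values were seen. With the slide as a block 10 of these 11 targets were not called (limma, adjusted p between 0.0535 and 0.413), and 955 was (0.0371).

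Target 22422 stood beside target 22421 and differed in the opposite direction. It was at -4.28, -4.74 and -4.09 in M1 and -0.62, -0.66 and -1.43 in M2, with a fitted difference of -3.47 ± 0.28 (SE; limma, adjusted p = 0.00225). Its probes 1 and 3 were not well above background on any M1 array and were at least 4.44-fold and at least 10.9-fold higher in M2, while probe 2, detected on all 6 arrays, gave -1.68. Target 955 was at -0.55, -0.65 and -0.53 in M1 and -3.92, -4.19 and -3.64 in M2, with a fitted difference of 3.34 (limma, adjusted p = 0.00118). Its probes 1 and 2 stayed at background in M2 and were at least 3.99-fold and at least 6.57-fold higher in M1. Its neighbour 956 was at 2.71, 3.03 and 2.66 in M1 and 4.93, 4.66 and 5.33 in M2, a difference of -2.17 (limma, adjusted p = 0.00489). In both pairs the groups of each target did not overlap, and no run of 30 nt was shared between neighbours.

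Targets 30953, 30954 and 30955 were all higher in M2, by -2.78, -3.18 and -2.82 (limma, adjusted p = 0.0131, 0.0292 and 0.00905), and the first pair shares at least 30 nt. In each, M1 replicate 3 was the lowest M1 array, at -4.12, -4.70 and -4.38. These values lie below -3.32, the lowest detected signal of that array. Probes 2 and 3 of 30953 and 30954 and probe 1 of 30955 were not detected on every M1 array. The fitted differences therefore rest partly on background values. Probe 2 of 30955 stayed at background in M1, so its M2 mean was at least 2.98-fold higher. The calls were lost for 30953 without M2 replicate 1 or 2 (adjusted p = 0.0655 and 0.0603 in limma), for 30955 without M2 replicate 1 (0.053) and for 30954 without M1 replicate 1 or any single M2 array (0.0515 to 0.109). Targets 32791 and 32792 differed by -2.47 and -2.41 (limma, adjusted p = 0.00154 and 0.00167), with no shared run between them. Probe 3 of 32791 had outlier marks on all 6 arrays and gave no value. Targets 21885 and 21886 differed by -2.89 and -3.04 (limma, adjusted p = 0.0467 and 0.00472). The call of 21885 was lost without any single array other than M1 replicate 3 (0.0506 to 0.166). Probe 2 of 21886 stayed at background in M1, so its M2 mean was at least 2.19-fold higher. The tested probes of 21885 and probe 3 of 21886 were also not detected on every M1 array.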
